A study of Arabidopsis thaliana with 18 samples.

Results

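The genes described here encode nuclear-coded subunits of photosystem I and photosystem II, electron carriers of the thylakoid, and the γ and δ subunits of the chloroplast ATP synthase. They were taken from a list of 33 loci, matched by locus identifier to the deposited expression table. Of these, 28 had a probe set that names no other locus: 10 of photosystem I, 11 of photosystem II, 5 electron carriers and 2 ATP synthase subunits. The same table holds 6481 loci with such a probe set. PSAF, PSBR and PSBTn shared their probe set with AT1G64625, AT2G36620 and AT3G09550, and PSAE2 and FNR2 had no entry, so these 5 are not analysed here. A member was not chosen by its values, but its presence in the table was not independent of them: no probe set of the table has an unadjusted p above 0.0261 (limma) between jmj17-1 at 2 h of light and jmj17-1 in the dark.

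Transcripts of whole Arabidopsis thaliana seedlings, in the Col-0 background, were measured on 18 Affymetrix ATH1 arrays. jmj17-1, a mutant of the histone H3K4 demethylase gene JMJ17, was set against wild type, with 3 arrays each after 4 days of dark and 2 arrays each after 2, 4 or 8 h of light that followed the dark. All seedlings were raised on plates of 1/2MS medium without sucrose. The type of lesion in jmj17-1 is not stated in the sources used here, and the JMJ17 locus had no entry in the table, so the mutant could not be checked at its own transcript.

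In thylakoid membranes photosystem II splits water and passes electrons through plastoquinone to the cytochrome b6f complex. Plastocyanin carries them on to photosystem I, and ferredoxin and ferredoxin-NADP reductase use them to make NADPH, while the ATP synthase turns the proton gradient into ATP. Reaction centre proteins are coded in the plastid, whereas most peripheral subunits are coded in the nucleus, and seedlings raised in the dark hold etioplasts that become chloroplasts when light arrives.

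Values are log2 RMA intensities, so 1 unit is a doubling, and the levels of different genes cannot be set against each other because each comes from its own probes. Differences were tested with limma on all 6847 probe sets of the table, and a gene was called where the adjusted p fell below 0.05 (Benjamini-Hochberg over the whole table). The number of arrays limits the precision. The labels do not tie replicates to separate cultures. The p-values therefore reflect only how far these arrays differ from each other, and that may be technical. In whole seedlings, fewer cells of a type and less RNA per cell cannot be told apart. The lowest group mean of any of the 28 genes was brighter than 39.1 percent of the probe sets, and the highest, PSAK at 13.36 in wild type after 8 h, lay near the top of the table at 13.41.

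Median intensity per array ran from 144 to 161. The second dark array of jmj17-1 stood apart: it correlated at 0.985 with both other arrays of its group, which correlated at 0.995 with each other. It was the highest of the 6 dark arrays for all 28 genes and below every light array for all 28. A second deposited value table names its columns otherwise: 2 of 18 equal the column of the same title and 16 equal another (tolerance 0.001). The titled columns were used, and with the other labels 0 of the 28 genes would be called in any light comparison. The share of all probe sets called with those labels is not given here, so that count cannot be read as particular to these genes. Markers of green tissue (CA1, RCA and GAPA, 3 of 4 listed) and of root (PIN2 and SCR, 2 of 8 listed) were measured. The summed intensity of the green markers lay between 6155 and 10579 in jmj17-1 and between 6562 and 7348 in wild type in the dark, and between 16513 and 26319.6 in the light arrays. That of the root markers lay between 360 and 443 in all 18 arrays, but the 2 markers went opposite ways in the light. In wild type at 8 h 1 was called lower than in the dark (-0.91) and 1 higher (0.19, limma). Over all probe sets 48.6 percent were called lower there and 31.7 percent higher. In jmj17-1 the 2 differences at 8 h were -0.68 and 0.32.

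Every one of the 28 genes was higher in wild type after light than in the dark. Each light group is set against seedlings taken at the end of the dark, so light and the added hours cannot be told apart. All 28 were called higher after 2, 4 and 8 h, where 40.5, 31.3 and 31.7 percent of all probe sets were called higher (limma). Another 3354, 2749 and 3328 of the 6847 probe sets were called lower at these times. The table holds only probe sets that differ between 2 h of light and dark in jmj17-1. The wild-type calls are therefore not independent of that choice. For each of the 28 the light arrays lay above all dark arrays at each time, as they did for 41.3, 34.9 and 35.1 percent of all probe sets. The median log2 difference from dark was 1.47 at 2 h, 1.76 at 4 h and 2.15 at 8 h, against -0.21, -0.10 and -0.20 over all probe sets. At 8 h the class medians were 2.29 for photosystem I, 2.14 for photosystem II, 2.20 for the electron carriers and 2.53 for the ATP synthase. The ranges within each class overlapped those of the other classes. No difference between classes was tested. In each class the gene with the largest rise at 8 h had the lowest wild-type dark mean, and that with the smallest rise the highest. These means were 9.13, 6.61, 8.37 and 7.92 for PSAH2, PSB28, FNR1 and ATPD. They were 11.10, 11.39, 11.15 and 10.65 for PSAG, PSBP1, FD2 and ATPC1. How far the size of a rise follows starting intensity was not tested.

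**Figure D1:**
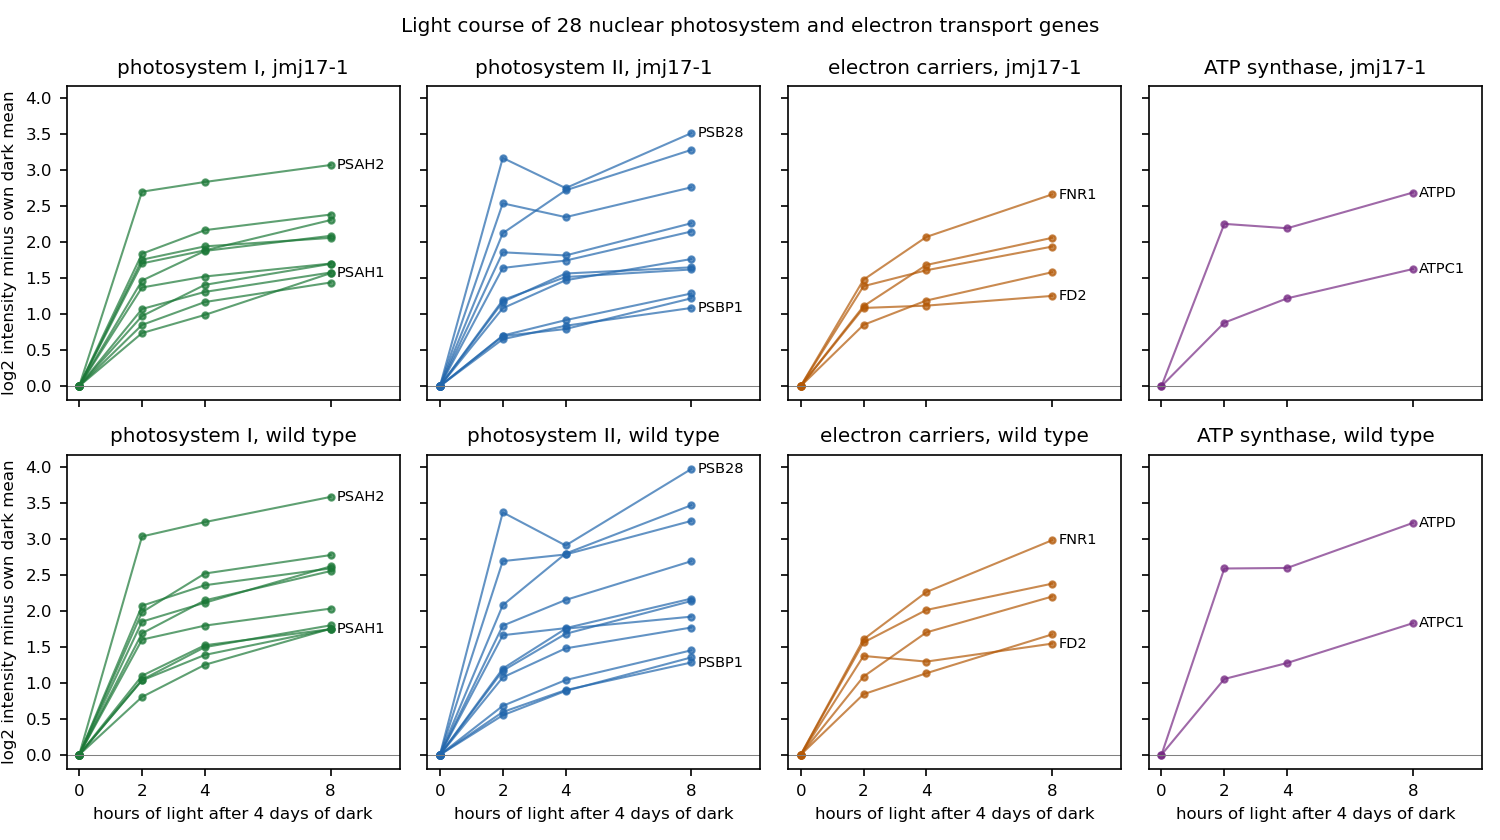
Mean log2 intensity of each of the 28 genes minus the dark mean of the same genotype, against hours of light after 4 days of dark, with jmj17-1 in the upper panels and wild type in the lower ones. Each line is a gene, and in wild type at 8 h the lines end between 1.28 (PSBP1) and 3.97 (PSB28).

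In photosystem I the largest rise was that of PSAH2, the smallest that of PSAG. PSAH2 (AT1G52230) and PSAH1 (AT3G16140) encode the H subunit, where the light-harvesting complex of photosystem II docks during state transitions. In jmj17-1 PSAH2 stood at 9.03, 10.72 and 9.12 in the dark, 12.30 and 12.35 at 2 h, 12.44 and 12.48 at 4 h and 12.69 and 12.70 at 8 h. Its wild-type values were 9.11, 9.14 and 9.14 in the dark, 12.07 and 12.26 at 2 h, 12.24 and 12.49 at 4 h and 12.75 and 12.68 at 8 h. Every light array was above every dark array in both genotypes, and the one high dark value belonged to jmj17-1 replicate 2. The wild-type difference at 8 h was 3.58 ± 0.33 (log2 ± SE of the fit, n = 2 and 3), or 12.0-fold, with an adjusted p of 8.03e-08 (limma).

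PSAG (AT1G55670) encodes a membrane subunit on the side of the core where the photosystem I antenna binds. In jmj17-1 it stood at 11.35, 12.00 and 11.15 in the dark, 12.35 and 12.35 at 2 h, 12.66 and 12.68 at 4 h and 12.87 and 13.00 at 8 h. Wild type had 10.93, 11.21 and 11.15 in the dark, 12.17 and 12.22 at 2 h, 12.57 and 12.67 at 4 h and 12.79 and 12.89 at 8 h. Light and dark arrays were separate in both genotypes, with dark replicate 2 of jmj17-1 the closest to the light. The wild-type rise was 1.75 ± 0.17 at 8 h (3.35-fold, adjusted p = 1.82e-07, limma), and PSAL, PSAH1 and PSAN lay close to it at 1.75, 1.75 and 1.80. PSAL is a neighbour of the H subunit in the complex, and PSAN lies on the lumenal side where plastocyanin delivers electrons.

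The stromal subunits that form the ferredoxin docking site rose more than these. At 8 h PSAD1 rose by 2.03, PSAD2 by 2.62 and PSAE1 by 2.55 in wild type. PSAK, the antenna-side counterpart of PSAG, rose by 2.59, and PSAO, a small membrane subunit near the H subunit, by 2.78. PSAK came near the top of the intensity range at 8 h.

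Photosystem II held both the largest and the smallest rise of the 28 genes. The largest was that of PSB28 (AT4G28660), whose cyanobacterial counterpart binds assembly intermediates of photosystem II and is absent from the finished complex. In jmj17-1 PSB28 stood at 6.32, 8.30 and 6.43 in the dark, 10.28 and 10.10 at 2 h, 9.81 and 9.73 at 4 h and 10.47 and 10.60 at 8 h. Wild-type seedlings gave 6.56, 6.61 and 6.66 in the dark, 10.01 and 9.95 at 2 h, 9.33 and 9.71 at 4 h and 10.55 and 10.62 at 8 h. In both genotypes the 4 h arrays lay below the 2 h arrays without overlap, and the 8 h arrays were the highest. The 8 h difference in wild type was 3.97 ± 0.38 (15.7-fold, adjusted p = 1.56e-07, limma).

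The smallest was that of PSBP1 (AT1G06680), a lumenal subunit that helps the oxygen-evolving centre hold calcium and chloride. In jmj17-1 PSBP1 stood at 11.47, 11.86 and 11.20 in the dark, 12.14 and 12.18 at 2 h, 12.38 and 12.31 at 4 h and 12.54 and 12.65 at 8 h. The wild-type arrays gave 11.38, 11.52 and 11.28 in the dark, 12.08 and 11.89 at 2 h, 12.17 and 12.41 at 4 h and 12.67 and 12.68 at 8 h. All light arrays of a genotype lay above its dark arrays, and in wild type the 8 h arrays lay above those at 4 h. The 8 h difference was 1.28 ± 0.14 (2.43-fold, adjusted p = 7.76e-07, limma).

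Other subunits of photosystem II filled the space between. PSBS, the sensor of lumenal acidity in non-photochemical quenching, rose by 3.25 at 8 h in wild type. The small membrane subunits PSBW, PSBX and PSBY rose by 1.92, 1.77 and 2.17. PSB27, a lumenal protein of assembly and repair, rose by 1.35, close to PSBP1 and to PSBO1 at 1.45. The pair of assembly proteins PSB27 and PSB28 thus stood at opposite ends of the class.

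Among the electron carriers the largest rise was that of FNR1 (AT5G66190), a leaf ferredoxin-NADP reductase that makes NADPH at the end of the chain. In jmj17-1 FNR1 stood at 8.38, 9.20 and 8.30 in the dark, 10.11 and 10.10 at 2 h, 10.66 and 10.73 at 4 h and 11.29 and 11.29 at 8 h. Wild type had 8.49, 8.44 and 8.18 in the dark, 9.93 and 10.02 at 2 h, 10.45 and 10.81 at 4 h and 11.33 and 11.37 at 8 h. Each later time lay above the one before it without overlap in both genotypes. The wild-type difference at 8 h was 2.98 ± 0.20 (7.90-fold, adjusted p = 2.29e-09, limma).

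FD2 (AT1G60950), the main leaf ferredoxin, had the smallest rise of the carriers. In jmj17-1 FD2 stood at 11.33, 11.83 and 11.11 in the dark, 12.51 and 12.51 at 2 h, 12.57 and 12.51 at 4 h and 12.60 and 12.76 at 8 h. Its wild-type values were 11.05, 11.19 and 11.20 in the dark, 12.47 and 12.57 at 2 h, 12.38 and 12.50 at 4 h and 12.61 and 12.77 at 8 h. Nearly all of its rise was present at 2 h in both genotypes, and the wild-type 2 h and 4 h arrays overlapped. The wild-type difference at 8 h was 1.54 ± 0.15 (2.92-fold, adjusted p = 1.36e-07, limma). PETC, the Rieske iron-sulphur protein of the cytochrome b6f complex, rose by 1.67.

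The ATP synthase subunits differed from each other as well. ATPD (AT4G09650) encodes the δ subunit, which ties the catalytic head to the peripheral stalk. In jmj17-1 ATPD stood at 8.01, 9.44 and 8.01 in the dark, 10.72 and 10.76 at 2 h, 10.70 and 10.65 at 4 h and 11.14 and 11.21 at 8 h. Wild-type seedlings gave 7.82, 7.98 and 7.95 in the dark, 10.47 and 10.54 at 2 h, 10.36 and 10.67 at 4 h and 11.14 and 11.14 at 8 h. The 2 h and 4 h arrays of wild type overlapped, and both 8 h arrays lay above them. The 8 h difference in wild type was 3.22 ± 0.29 (9.33-fold, adjusted p = 6.39e-08, limma).

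ATPC1 (AT4G04640) encodes the γ subunit, the central rotor, whose disulphide switch is reduced in the light. In jmj17-1 ATPC1 stood at 10.78, 11.22 and 10.65 in the dark, 11.79 and 11.74 at 2 h, 12.09 and 12.12 at 4 h and 12.43 and 12.59 at 8 h. Wild type had 10.63, 10.73 and 10.59 in the dark, 11.78 and 11.63 at 2 h, 11.79 and 12.06 at 4 h and 12.51 and 12.45 at 8 h. The times followed in order without overlap in both genotypes. The rise at 8 h in wild type was 1.83 ± 0.13 (3.55-fold, adjusted p = 5.95e-09, limma).

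Much of the change came early. In wild type a median of 62.7 percent of the log2 rise seen at 8 h was present at 2 h, with a range between 40.6 percent for PSB27 and 88.9 percent for FD2, and a median of 80.7 percent was present at 4 h. The early genes of each class were PSAH2 at 84.7 percent, PSB28 at 84.8 percent, FD2, and ATPD at 80.3 percent. PSBS (82.8 percent) and PSAK (80.0 percent) were early as well. The genes with the lowest shares at 2 h were PSB27, PSAH1 (45.9 percent), PSBP1 (46.4 percent), PSBO1 (46.8 percent) and PETE1 (49.4 percent). In jmj17-1 the median share at 2 h was 70.6 percent, with a range between 47.0 and 91.9 percent. That value rests on its dark mean, which dark replicate 2 raised, and a higher dark mean makes the share lower. It also rests on the contrast by which the table was selected, so it is a description only.

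**Figure D2:**
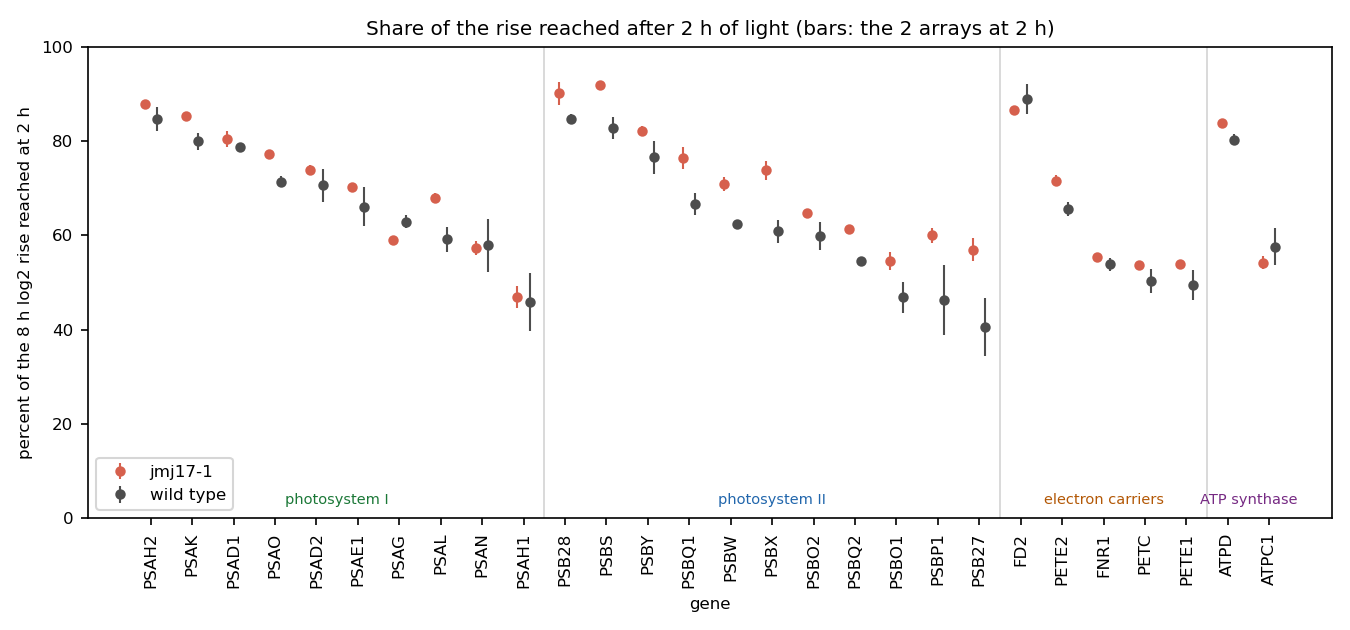
Percent of the 8 h log2 rise above the dark mean that each gene had reached after 2 h of light, with jmj17-1 as red points and wild type as grey points. Points are group means and bars span the 2 arrays at 2 h; wild-type values run between 40.6 percent (PSB27) and 88.9 percent (FD2).

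After 2 h the rise went on in smaller steps. The median difference in wild type was 0.36 for 4 h minus 2 h, above 0 for 26 of 28 genes, and 0.41 for 8 h minus 4 h, above 0 for all 28. Between 2 h and 4 h, 10 of the 28 genes were called higher in wild type and 0 lower (20.4 and 26.8 percent of all probe sets, limma). At an unadjusted p under 0.05 these counts were 14 higher and 0 lower, against 23.5 and 29.9 percent of all probe sets. The 10 were PSAL and PSAN of photosystem I, PSBO1, PSBO2, PSBQ2, PSBW, PSBX and PSB27 of photosystem II, and the carriers PETE1 and FNR1. Their differences ran between 0.34 and 0.72. PSB28 was -0.46 ± 0.42 and FD2 -0.08, and neither was called, though both 4 h arrays of PSB28 lay below both 2 h arrays, as in 38.7 percent of all probe sets. Without jmj17-1 dark replicate 2, which enters only the pooled spread here, 20 genes were called higher and PSB28 was called lower (adjusted p = 0.00262, limma). In that fit 23.3 percent of all probe sets were called higher and 28.9 percent lower. Without 1 of the wild-type arrays at 2 h, or without the wild-type 4 h replicate 2, fewer of the 28 genes and of all probe sets were called. The median difference was then 0.35 or 0.33 without 2 h replicate 1 or 2, and 0.24 without 4 h replicate 2.

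Between 4 h and 8 h, 9 genes were called higher in wild type and 0 lower (17.3 and 22.4 percent of all probe sets), with 16 higher and 0 lower at an unadjusted p under 0.05 (20.4 and 28 percent of all probe sets). They were PSAH1, PSAL, PSBO1, PSBO2, PSB27, PETC, PETE1, FNR1 and ATPC1. All 28 genes had both 8 h arrays above both 4 h arrays, as did 29.3 percent of all probe sets. The first wild-type array at 4 h was below the second for all 28 genes, by a median of 0.24. Without it the median difference was 0.27, and fewer of the 28 genes and of all probe sets were called. Without wild-type 8 h replicate 1 or 2 the median was 0.43 or 0.46, again with fewer called in both. The count called was 25 without jmj17-1 dark replicate 2, where 20.2 percent of all probe sets were called higher and 25.1 percent lower. Without jmj17-1 dark replicate 3 it was 15, where 2784 of 6847 probe sets were called in either direction.

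In jmj17-1 all 28 genes were called higher than in the dark at 4 h and at 8 h (31.9 and 31.1 percent of all probe sets). The median difference was 1.59 at 4 h and 1.85 at 8 h, or 1.84 and 2.15 without dark replicate 2. At 2 h the 28 differences ran between 0.65 and 3.17. That contrast selected the table, so it was not tested. The 4 h and 8 h comparisons share its dark arrays, so their tests are not independent of that choice. Between 4 h and 8 h, 7 genes were called higher and 0 lower in jmj17-1 (14.8 and 20 percent of all probe sets, limma), and 10 and 0 at an unadjusted p under 0.05 (19.5 and 24.7 percent). These were PSAH1, PSBO1, PSBY, PSB27, PETC, FNR1 and ATPC1. The count was 19 without dark replicate 2. Without any single array of jmj17-1 at 2, 4 or 8 h, fewer of the 28 genes and of all probe sets were called. The median difference was then 0.37 or 0.32 without a 4 h array and 0.38 or 0.31 without an 8 h array. It was 0.35 without a 2 h array. In the fit without dark replicate 2, 18.9 percent of all probe sets were called higher between 4 h and 8 h and 22.2 percent lower. The comparisons of each genotype with its own dark arrays share those arrays across times.

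Where a subunit is coded by a pair of genes, the copies did not rise by the same amount. The pairs compared here are the 5 with both copies among the 28 genes, and the further copies FD1 and ATPC2 are given with the other genes of the pathway. The log2 ratio of the copies was taken within each array, so that a shift common to an array cancels, and its mean over the 6 light arrays was compared with that over the 3 dark arrays of wild type by a two-sided exact permutation test. The smallest p this design allows is 0.0238, and p-values were adjusted over the 5 pairs. This test was added after the values had been seen. Cross-hybridization between copies was not tested. In each photosystem pair the copy that rose more was the dimmer in the wild-type dark mean, such as PSBO2 at 8.47 and PSBO1 at 11.39. In the plastocyanin pair it was the brighter, with PETE2 at 10.84 and PETE1 at 8.75. The part of starting intensity in these differences was not tested.

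PSAH2 outran PSAH1. PSAH1 stood at 10.49, 10.97 and 10.18 in the jmj17-1 dark arrays, 11.32 and 11.25 at 2 h, 11.49 and 11.58 at 4 h and 12.12 and 12.11 at 8 h. The wild-type arrays gave 10.24, 10.31 and 10.29 in the dark, 11.19 and 10.97 at 2 h, 11.34 and 11.72 at 4 h and 12.09 and 11.97 at 8 h. The steps of PSAH1 were spread over the whole course, with 45.9 percent of its 8 h log2 rise in wild type present at 2 h. For PSAH2 that share was 84.7 percent, though its wild-type mean still went from 12.16 at 2 h to 12.71 at 8 h. In wild type the ratio of PSAH2 to PSAH1 was 2.01 higher on the log2 scale in the light (exact p = 0.0238, adjusted 0.0298, n = 6 and 3), and its mean was highest at 2 h.

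PSBO2 outran PSBO1 by a similar amount but on another course. Both encode the manganese-stabilizing protein of the oxygen-evolving centre, and PSBO1 is known as the major form. PSBO2 (AT3G50820) stood at 8.47, 9.29 and 8.34 in the jmj17-1 dark arrays, 10.81 and 10.84 at 2 h, 11.42 and 11.42 at 4 h and 11.94 and 12.03 at 8 h. Its wild-type values were 8.44, 8.60 and 8.37 in the dark, 10.45 and 10.66 at 2 h, 11.02 and 11.51 at 4 h and 12.00 and 11.88 at 8 h. Each time lay above the one before it in both genotypes.

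PSBO1 (AT5G66570) stood at 11.43, 11.71 and 11.28 in the jmj17-1 dark arrays, 12.15 and 12.20 at 2 h, 12.41 and 12.37 at 4 h and 12.71 and 12.80 at 8 h. Wild type had 11.36, 11.47 and 11.33 in the dark, 12.12 and 12.02 at 2 h, 12.28 and 12.58 at 4 h and 12.89 and 12.79 at 8 h. In wild type both copies were called higher at each step. In wild type PSBO2 rose by 3.47 at 8 h and PSBO1 by 1.45, and the ratio was 1.72 higher in the light (exact p = 0.0238, adjusted 0.0298, n = 6 and 3).

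PSBQ1 and PSBQ2 encode a lumenal subunit bound next to PSBP. PSBQ1 (AT4G21280) stood at 9.14, 10.07 and 8.97 in the jmj17-1 dark arrays, 11.09 and 10.99 at 2 h, 11.16 and 11.11 at 4 h and 11.45 and 11.63 at 8 h. Wild-type seedlings gave 8.95, 8.99 and 8.94 in the dark, 10.82 and 10.69 at 2 h, 10.97 and 11.26 at 4 h and 11.67 and 11.63 at 8 h. Light and dark arrays were separate in both genotypes. PSBQ2 (AT4G05180) stood at 10.12, 10.88 and 9.97 in the jmj17-1 dark arrays, 11.42 and 11.39 at 2 h, 11.83 and 11.76 at 4 h and 12.07 and 12.12 at 8 h. The wild-type arrays gave 10.04, 9.95 and 9.87 in the dark, 11.10 and 11.14 at 2 h, 11.55 and 11.72 at 4 h and 12.10 and 12.08 at 8 h. The ratio of PSBQ1 to PSBQ2 was 0.55 higher in the light in wild type (exact p = 0.0238, adjusted 0.0298, n = 6 and 3).

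PSAD1 and PSAD2 had the smallest difference of the photosystem pairs in wild type, though not in jmj17-1. PSAD2 (AT1G03130) stood at 9.42, 10.37 and 9.42 in the jmj17-1 dark arrays, 11.41 and 11.46 at 2 h, 11.67 and 11.57 at 4 h and 11.93 and 12.15 at 8 h. Its wild-type values were 9.53, 9.37 and 9.41 in the dark, 11.38 and 11.19 at 2 h, 11.43 and 11.67 at 4 h and 12.07 and 12.04 at 8 h. All light arrays were far above the dark ones. PSAD1 (AT4G02770) stood at 9.68, 10.42 and 9.67 in the jmj17-1 dark arrays, 11.27 and 11.32 at 2 h, 11.46 and 11.43 at 4 h and 11.58 and 11.67 at 8 h. Wild-type seedlings gave 9.58, 9.72 and 9.57 in the dark, 11.21 and 11.23 at 2 h, 11.33 and 11.50 at 4 h and 11.66 and 11.64 at 8 h. The ratio of PSAD2 to PSAD1 was 0.39 higher in the light in wild type (exact p = 0.0238, adjusted 0.0298, n = 6 and 3), and it was largest at 8 h.

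For plastocyanin, PETE2 (AT1G20340) is known as the more abundant form and PETE1 (AT1G76100) as the lesser. PETE2 stood at 10.95, 11.92 and 10.99 in the jmj17-1 dark arrays, 12.65 and 12.70 at 2 h, 12.94 and 12.86 at 4 h and 13.20 and 13.25 at 8 h. The wild-type arrays gave 10.80, 10.81 and 10.92 in the dark, 12.44 and 12.37 at 2 h, 12.71 and 13.00 at 4 h and 13.16 and 13.29 at 8 h. In both genotypes the arrays of each time lay above those of the time before. PETE1 stood at 8.74, 9.41 and 8.76 in the jmj17-1 dark arrays, 10.06 and 10.10 at 2 h, 10.67 and 10.63 at 4 h and 10.96 and 11.10 at 8 h. Its wild-type values were 8.65, 8.87 and 8.72 in the dark, 9.76 and 9.90 at 2 h, 10.35 and 10.54 at 4 h and 10.99 and 10.90 at 8 h. The ratio of PETE2 to PETE1 was 0.32 higher in the light in wild type (exact p = 0.0476, n = 6 and 3), and the light and dark ratios overlapped.

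In jmj17-1 the same light minus dark differences of the ratio were 1.77 for PSAH2 over PSAH1, 1.74 for PSBO2 over PSBO1, 0.41 for PSBQ1 over PSBQ2, 0.43 for PSAD2 over PSAD1 and 0.03 for PETE2 over PETE1. Without dark replicate 2 they were 2.11, 1.92, 0.47, 0.50 and 0.12. Since the jmj17-1 2 h and dark arrays selected the table, these are given with no test, and the difference between genotypes was not tested.

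**Figure D3:**
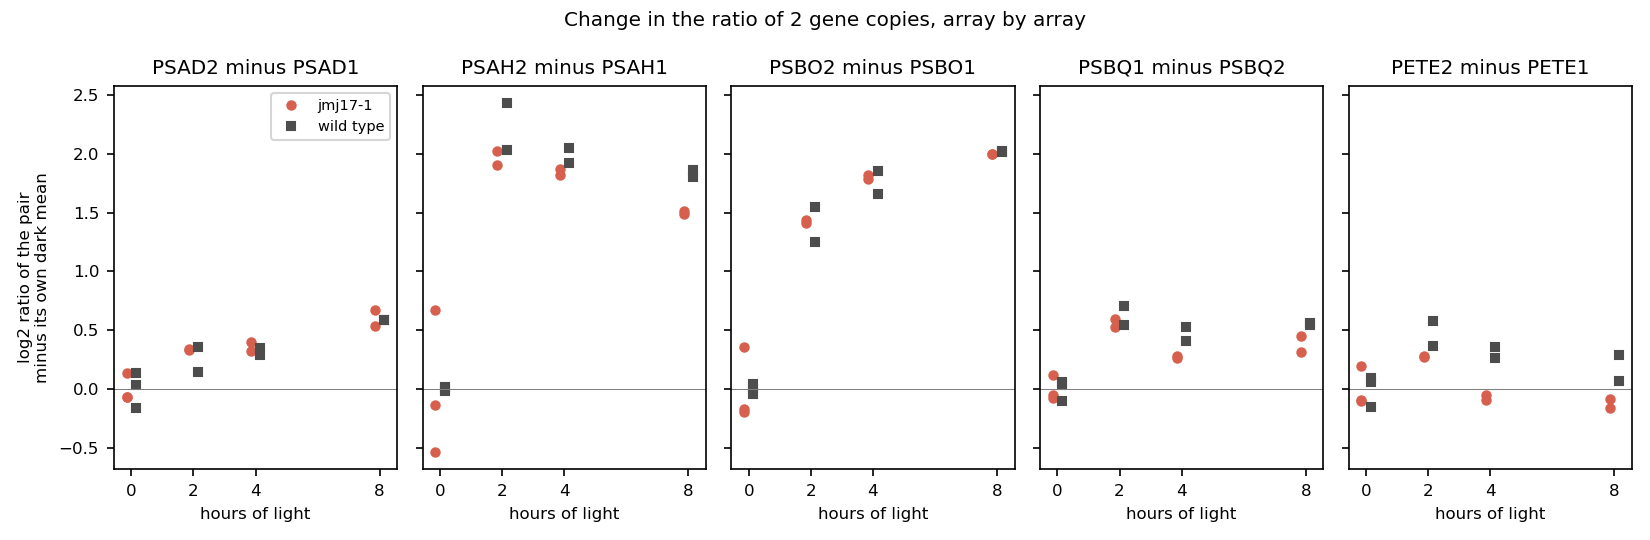
Log2 ratio of the copies of each gene pair in each array, minus its dark mean in the same genotype, against hours of light, with jmj17-1 as red circles and wild type as grey squares. In wild type the ratio was higher in the light by 2.01 for PSAH2 over PSAH1 and by 1.72 for PSBO2 over PSBO1, and by 0.32 to 0.55 for the other pairs.

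The comparison of jmj17-1 with wild type asks whether these genes differ in the mutant of the demethylase gene, in the dark or on the way to light. No member was called at any time. In the dark 0 of 28 genes were called higher and 0 lower, where 0.613 percent of all probe sets were called higher and 1.18 percent lower (limma). At an unadjusted p under 0.05 the dark counts were 8 higher and 0 lower, or 28.6 and 0 percent, against 12.9 and 8.87 percent of all probe sets. The 8 were PSAE1, PSAG, PSAO, PSBQ1, PSBQ2, PSBW, PETE2 and ATPD. The mean difference was above 0 for 27 of the 28 genes, with PSBY at -0.04 the exception, and the median was 0.27, against 0.02 over all probe sets. By class the medians were 0.35 for photosystem I, 0.20 for photosystem II, 0.26 for the carriers and 0.40 for the ATP synthase.

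A single array carried most of this. Dark replicate 2 of jmj17-1 exceeded the next highest dark array by a median of 0.67, from 0.10 for PSBW to 1.64 for PSB28. The largest gaps were those of PSB28, PSAH2 (1.58), ATPD (1.42), PSBS (1.25) and PSAK (1.20). Without that array the median genotype difference in the dark was 0.04, with 17 of 28 above 0. The summed green markers were highest in it too, at 10579, against 7317 and 6155 in the other dark arrays of jmj17-1, while the summed root markers were 421 in it and 430 and 420 in the others. The part of these markers in the dark differences was not tested.

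**Figure D4:**
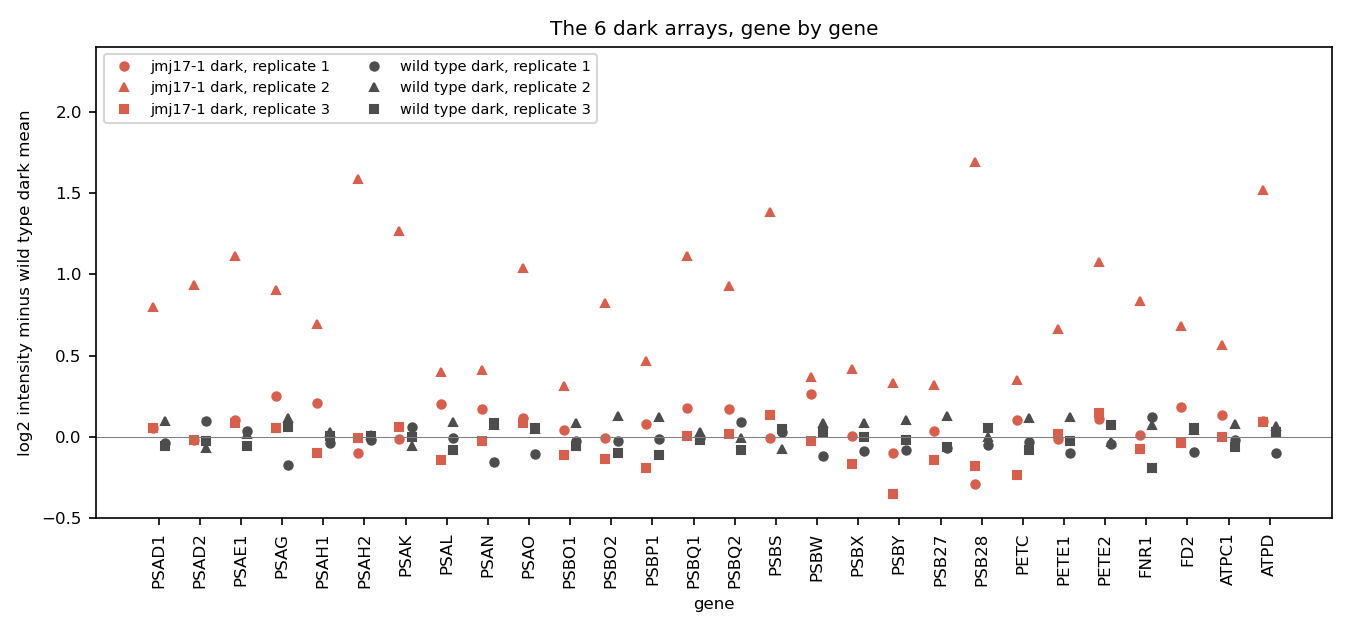
Log2 intensity of each gene in the 6 dark arrays minus its wild-type dark mean, with jmj17-1 in red and wild type in grey and the replicate number given by the symbol. The red triangle, jmj17-1 replicate 2, is the highest dark value for all 28 genes, by 0.10 to 1.64.

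For PSAE1, PSAO, PETE2 and ATPD all 3 dark arrays of jmj17-1 were above all 3 of wild type, as were those of 14.2 percent of all probe sets. Apart from replicate 2, these margins were small. PSAE1, part of the ferredoxin docking site, stood at 10.27, 11.29 and 10.25 in jmj17-1 and at 10.21, 10.19 and 10.12 in wild type. PSAO stood at 10.10, 11.03 and 10.08 in jmj17-1 and at 9.88, 10.04 and 10.04 in wild type. In both genes replicates 1 and 3 of jmj17-1 lay close to the highest wild-type array and replicate 2 far above it. The smallest adjusted p of the 28 genes in the dark was 0.155, for PSAG. Without jmj17-1 dark replicate 3 this gene was called, at 0.58 ± 0.14 (adjusted p = 0.0409, limma), and replicate 2 then made up 1 of the 2 remaining arrays. In that fit 1 of the 28 genes was called, against 264 of all 6847 probe sets in either direction.

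At 2 h of light the differences were small but ran the same way in nearly all genes. None was called (0 of 28 in each direction, where 0.979 percent of all probe sets were called higher and 4.29 percent lower, limma). None reached an unadjusted p under 0.05, against 5.94 percent of all probe sets higher and 14.2 percent lower. The mean was above 0 for 27 of 28 genes, FD2 at -0.01 being the exception, with a median of 0.18 against -0.04 over all probe sets. For 25 genes both jmj17-1 arrays were above both wild-type arrays, as they were for 20.2 percent of all probe sets, and the exceptions were PSAN, FD2 and ATPC1. The largest difference was that of PSBS, which stood at 12.38 and 12.36 in jmj17-1 and at 12.09 and 11.94 in wild type. It came to 0.35 ± 0.30, with an adjusted p of 0.564 (limma). The summed green markers stood at 18073 and 18125 in jmj17-1 and at 16513 and 16749 in wild type at 2 h, with a median log2 difference of 0.18 over their 3 genes, the same as for the 28. The part of these markers in the 2 h differences was not tested. PSBQ2 differed by 0.29, PSBQ1 by 0.28 and PSAO by 0.27. The error of these fits includes the spread of the jmj17-1 dark arrays. Without dark replicate 2 the errors shrank, to 0.12 for PSBS and 0.09 for PSBQ2. Still no member was called, where 2.12 percent of all probe sets were called higher and 6.46 percent lower. The smallest adjusted p was then 0.0567, for PSBQ2. The jmj17-1 2 h arrays also helped select the table, so these values are not independent of that choice.

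At 4 h 0 genes were called in either direction (0.862 percent of all probe sets higher and 1.85 percent lower, limma). At an unadjusted p under 0.05 the count was 0 too, against 5.62 percent of all probe sets higher and 9.45 percent lower. The difference was above 0 for 26 of 28 genes, with a median of 0.07. It was above 0 for 22 after quantile normalization of the table. In 8 genes both jmj17-1 arrays were above both wild-type arrays (21.4 percent of all probe sets): PSAE1, PSBQ2, PSBX, PSB28, PETC, PETE1, FD2 and ATPC1. These values rest on the first wild-type array at 4 h, which was the lower for all 28 genes. Without it the difference was above 0 for 9 of 28 genes and the median was -0.04, with 1 of 10 genes of photosystem I above 0. Without the second array it was above 0 for all 28, with a median of 0.19. No gene was called in either case (0 of 28, limma).

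At 8 h the genotypes were closest. Again 0 genes were called (0.789 percent of all probe sets higher and 0.482 percent lower, limma). At an unadjusted p under 0.05 the count was 0 too, against 7.1 percent of all probe sets higher and 7.54 percent lower. The difference was above 0 for 12 of 28 genes, with a median of -0.02 and a range from -0.11 for PSBQ1 to 0.09 for PSAG. PSAH1, PSAN and ATPD had both jmj17-1 arrays above the wild-type ones, and PSAK, PSBP1, PSB27 and FNR1 had both below (24.4 and 25.3 percent of all probe sets). With the mean of the 4 times as the measure, 0 genes were called (2.96 percent of all probe sets higher and 5.8 percent lower, limma). PSBQ2 at 0.21 and PETE1 at 0.19 were the only ones at an unadjusted p under 0.05. They made up 7.14 percent of the 28 genes, against 9.27 percent of all probe sets higher and 13.9 percent lower. Without jmj17-1 dark replicate 2 the differences of PSBQ2 and PETE1 were 0.14 and 0.14. The median over the 28 genes was then 0.06, against 0.13 with that array.

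**Figure D5:**
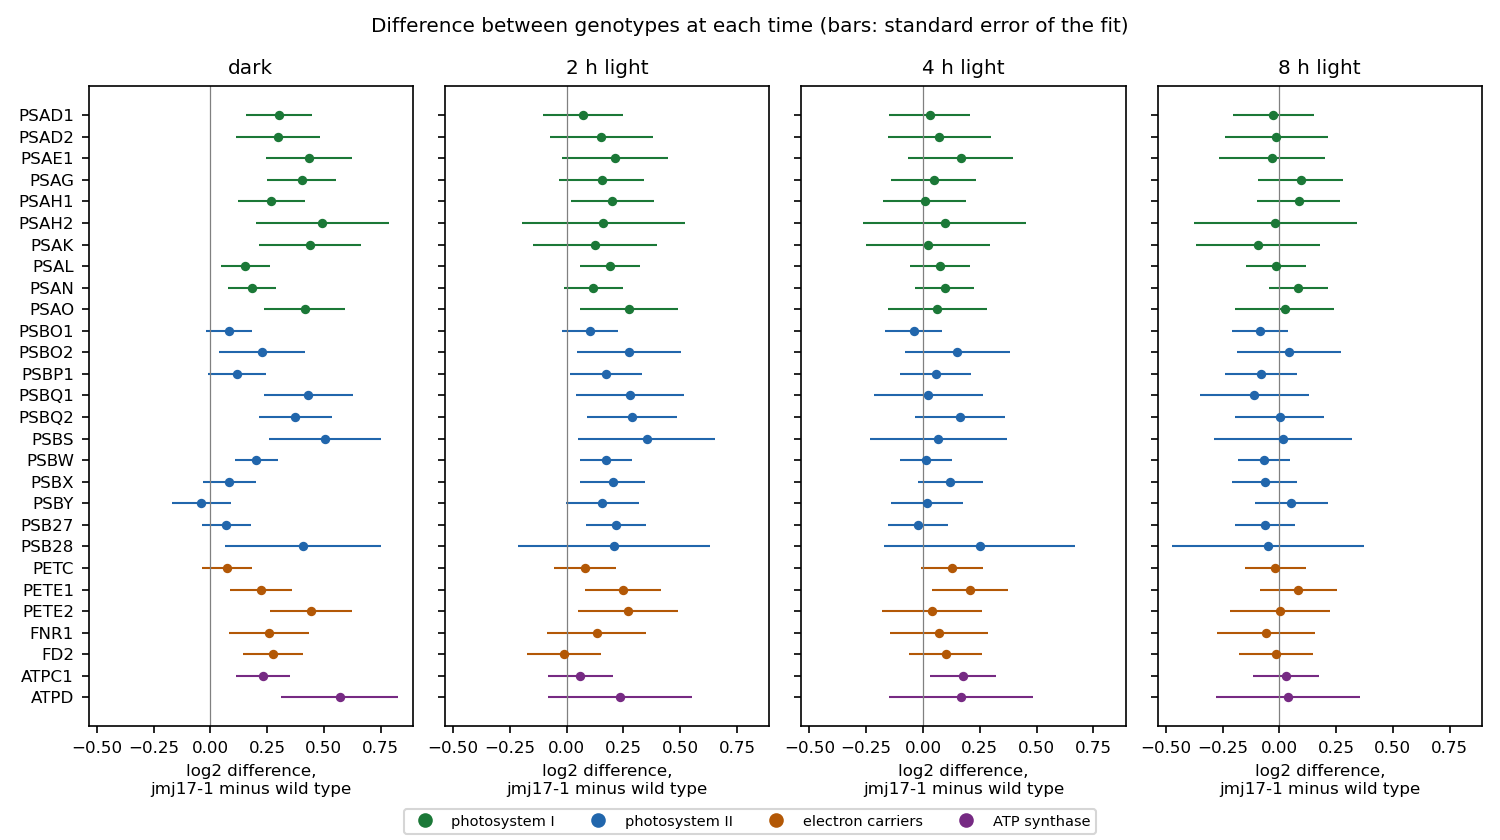
Difference in log2 intensity between jmj17-1 and wild type for each of the 28 genes in the dark and after 2, 4 and 8 h of light, with the standard error of the fit as bars and the class as colour. Medians were 0.27 in the dark, then 0.18, 0.07 and -0.02 with the hours of light, and no gene was called at any time.

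The genotype by light interaction, the light response of jmj17-1 minus that of wild type, was called for 0 genes at each time (limma). Over all probe sets 0.102, 0.102 and 1.14 percent were called in either direction at 2, 4 and 8 h. At an unadjusted p under 0.05 the count was 0 at each time, against 3.08, 4.95 and 8.88 percent of all probe sets higher. The shares lower were 10.7, 8.08 and 11.5 percent. The median interaction was -0.13 at 2 h, -0.19 at 4 h and -0.30 at 8 h. Without jmj17-1 dark replicate 2 it was 0.16, 0.06 and -0.04, so that the sign turned at 2 and 4 h. The smallest adjusted p over the 28 genes was 0.579, 0.574 and 0.324 at the 3 times.

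Other nuclear genes of the same pathway rose in the light as well. Of 14 measured genes among 16 listed for further photosystem, electron transport and ATP synthase functions, 12 were called higher and 1 lower at 8 h in wild type, with a median of 1.74, where 31.7 percent of all probe sets were called higher and 48.6 percent lower. PGRL1A, which serves cyclic electron flow around photosystem I, rose by 3.35 ± 0.16, and STN7, the kinase of state transitions, by 2.45 ± 0.11. ATPC2, a second copy of the γ subunit gene, fell by 0.33 ± 0.09 where ATPC1 rose. Of 16 subunits of the chloroplast NADH dehydrogenase-like complex, which also feeds cyclic electron flow, 11 were measured. All 11 were called higher at 8 h, with a median of 3.69 and a range from 0.59 for NDHS to 4.75 for PNSB3. The lowest wild-type dark means were those of NDHT (3.04), PNSL3 (4.19) and PNSB3 (4.50), and the highest that of NDHS (9.63). How near the low ones lie to array background is not known, which limits the size of these rises. Of 17 assembly and repair factors 8 were measured and all were called higher, from 1.92 for the thylakoid protease FTSH8 to 3.32 for HCF173, which is needed to translate the D1 protein. None of the 18 plastid-coded genes listed had an entry in the table.

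None of these 33 further genes was called between genotypes at any time or in any interaction (limma). At an unadjusted p under 0.05, 13 were higher and 1 lower in the dark, the comparison that holds jmj17-1 dark replicate 2, against 12.9 and 8.87 percent of all probe sets. At this threshold 0 were higher and at most 1 lower at 2, 4 and 8 h, against 5.62 to 7.1 percent of all probe sets higher and 7.54 to 14.2 percent lower. The interactions had 0 higher and 2 lower at 2 h, 0 and 1 at 4 h, and 1 and 4 at 8 h. Over all probe sets the shares were 3.08 and 10.7 percent at 2 h and 4.95 and 8.08 percent at 4 h. At 8 h they were 8.88 and 11.5 percent. The mean of the 4 times had 3 and 0, against 9.27 and 13.9 percent of all probe sets. Without jmj17-1 dark replicate 2, PNSL3 was called higher in jmj17-1 at 2 h (0.59 ± 0.14, adjusted p = 0.0194, limma). PGRL1A was called higher as well (0.32 ± 0.09, adjusted p = 0.0473, limma). In that fit 2.12 percent of all probe sets were called higher at 2 h and 6.46 percent lower. The jmj17-1 2 h arrays also helped select the table, so these calls are not independent of that choice. In the same fit PNSL3 was also called higher over the mean of the 4 times (adjusted p = 0.0380, limma). There 3.72 percent of all probe sets were called higher and 6.69 percent lower.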

How the data were processed

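The submitters' processing notes name GCOS 1.4 as the scanning software. The authors' values are RMA summaries, per the file headers, and they deposited intensity values on the linear scale for 6847 probe sets, and a value table of centred log2 values for 22810. The authors' fold change, in log2, equals the difference of the dark means and was used only as a check. The 18 normalized columns that repeat the intensities were not used. Array background is not stated in the sources used here.

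Samples were grouped by their titles. Log2 intensities of all 18 arrays were fitted with 1 mean per group (R 4.3.3, limma 3.58.1; residual degrees of freedom 10, prior 4.91, prior SD 0.114), with no batch term, since the labels give none. Each gene had 1 probe set of its own. The fit was tested on simulated data. Permutation tests used SciPy 1.17.1 in Python 3.11.15, with NumPy 2.4.6 and pandas 2.3.3, and plots matplotlib 3.10.9. Members, gene lists and tests were chosen with earlier results of these data known. Values in every array are given for the largest and smallest wild-type 8 h rise in each class and for gene pairs. PSAE1, PSAO and PSBS were chosen after their values were seen and are given for the arrays compared. Alternatives were other normalizations, a filter on dim probe sets, the value table, array weights, an intensity trend, fewer arrays in the fit, the replicate number as a block, and each array left out. Gene names came from the table and from RefSeq (TAIR10.1). No coordinates are printed, since the table names no build.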

Additional observations from a re-analysis of the deposited data

Results flagged for a closer look

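For 4 genes both arrays of jmj17-1 lay above both arrays of wild type at 2 h of light and below both at 8 h. They were PSAK (-0.0917 at 8 h and 0.12 at 2 h, log2 difference of jmj17-1 minus wild type), PSBP1 (-0.0806 and 0.17), PSB27 (-0.0624 and 0.22) and FNR1 (-0.0594 and 0.13). None of the 8 differences was called by limma, and the change between 2 h and 8 h was not tested. Over all probe sets, both jmj17-1 arrays were above both wild-type arrays in 20.2 percent at 2 h and below both in 25.3 percent at 8 h.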

How the results depend on the processing

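With each array left out in turn, the count of genes called stayed at 28 in the light against dark comparisons of both genotypes, and at 0 between genotypes and in the interactions. The exceptions were 0 to 1 in the dark between genotypes, 1 to 21 for 4 h against 2 h in wild type, 1 to 25 for 8 h against 4 h in wild type and 0 to 19 for 8 h against 4 h in jmj17-1. For 8 h against 4 h, wild type and jmj17-1 had 4 and 1 genes called after quantile normalization, 17 and 19 with array weights and 18 and 21 with only the arrays compared in the fit. With the whole value table, its columns taken as the arrays they equal, the count was 6 for 4 h against 2 h in wild type and 2 for 8 h against 4 h in jmj17-1. Taken by its own labels, that table gave 0 genes in each of the 8 light comparisons. The shares of all probe sets called are not set beside these counts, so changes cannot be read as particular to the 28 genes. The cause of these changes was not tested. Median centring, the filter on dim probe sets and the intensity trend moved no count by over 1.5 times. Averaging probe sets changes nothing, since each gene has 1. Quantile normalization and median centring shifted the median of all probe sets at 2 h in wild type to -0.34, against -0.21 as deposited, and that of the 28 genes to 1.45 and 1.34, against 1.47.

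Same-numbered arrays of the genotypes did not deviate together (correlations of -0.03, -0.03 and 0.15 in the dark, then 0.09, 0.04 and 0.22 with the hours of light), so the numbers were not taken to pair them. With the replicate number as a block, 28 genes were called in each light against dark comparison and 0 between genotypes and in the interactions. In wild type 14 were called for 4 h against 2 h and 12 for 8 h against 4 h, and in jmj17-1 8 for 8 h against 4 h. The shares of all probe sets called in that fit are not given here.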
